A study of Homo sapiens with 34 samples.

Results

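The BCL2 family genes decide whether a cell starts apoptosis at its mitochondria, and 10 of them were examined here: BCL2, BCL2L1, MCL1, BCL2L11, BBC3, PMAIP1, BMF, BID, BAX and BAK1. They were chosen by name. A peak was given to a gene if its summit lay in the gene body or within 50 kb of the transcription start site (TSS) of the gene's main (MANE Select) transcript in GENCODE 44. The 10 genes, of 19970 protein-coding genes annotated on chromosomes 1 to 22 and X, held 375 of the 290228 summits of 8 peak lists. Positions are given in hg38 with the first base as 1, and distances are signed along the gene, so that upstream positions are negative.

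The study located RBPJ and SOX2 on the genome by ChIP-seq, the sequencing of DNA fragments bound to a precipitated protein, in MB157, a triple-negative breast cancer line driven by NOTCH, and in MB157R, a derivative of that line made resistant by 25 weeks in 1 µM of the γ-secretase inhibitor (GSI) LY3039478. All cells carried a doxycycline-inducible lentiviral construct and received 1 µg/ml doxycycline for 72 h. The 4 conditions were iN1-ICD MB157R (ΔE-NOTCH1, which the study calls N1-ICD), iEV MB157R (empty vector), iSOX2 MB157 (HA-tagged SOX2) and iEV MB157 (empty vector). RBPJ was precipitated in all 4 conditions, SOX2 with a SOX2 antibody in both MB157R conditions, and HA in both MB157 conditions, the HA precipitate of iEV MB157 being the control for the tag. Whether GSI was present during the 72 h was not given in the sources used here. There were 34 libraries, 3 per group except for the HA control, which had 1. The libraries of a group were pooled before peaks were called, so each group gave 1 list. Differences between lists therefore have no replicate error beside them, and every interval below covers counting error only. Both cell states come from 1 cell line, and peak lists hold no expression, so the cell type was not checked against markers.

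The intracellular domain of NOTCH does not bind DNA by itself and reaches its target genes through RBPJ, which does. Without that domain RBPJ associates with repressors. SOX2 is an HMG-box transcription factor of pluripotent and neural stem cells. Within the BCL2 family, the survival proteins BCL2, BCL-XL (the main product of BCL2L1) and MCL1 hold the effectors BAX and BAK1 in check. The BH3-only proteins BIM (BCL2L11), PUMA (BBC3), NOXA (PMAIP1), BMF and BID bind the survival proteins or activate the effectors, which then permeabilise the outer mitochondrial membrane. Peaks show where a factor was cross-linked, and the expression of these genes was not measured in these libraries.

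Sequences under the strongest of the members' sites that carried a motif are given first, since the results below refer back to them. Stronger peaks of a gene without the motif were passed over. By a fixed rule, the strongest RBPJ peak of a gene with an RBPJ motif (GTGGGAA or GTGAGAA, either strand) and its strongest SOX2 or HA-SOX2 peak with a SOX motif (AACAATG or AACAAAG, either strand) within 100 bp of the summit were taken. The 7 shown are those of the 10 with the highest fold enrichment that carried the motif in the stretch shown, the summit with 50 bases on each side, and overlapped no annotated exon. Each is the plus strand of hg38, in lower case with the motif in capitals. Of these genes only BCL2L11 runs on the plus strand.
BCL2L1, HA-SOX2 in iSOX2 MB157, chr20:31712780-31712880, intron 2: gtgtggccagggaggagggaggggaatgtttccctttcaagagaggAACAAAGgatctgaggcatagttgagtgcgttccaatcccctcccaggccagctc
BCL2L1, RBPJ in iN1-ICD MB157R, chr20:31704603-31704703, intron 2: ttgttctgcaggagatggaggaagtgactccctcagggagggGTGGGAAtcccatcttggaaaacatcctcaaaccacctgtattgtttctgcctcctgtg
BCL2L11, SOX2 in iEV MB157R, chr2:111123252-111123352, intron 1: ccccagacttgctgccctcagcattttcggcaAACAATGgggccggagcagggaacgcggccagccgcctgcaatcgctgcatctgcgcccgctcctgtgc
BMF, HA-SOX2 in iSOX2 MB157, chr15:40103413-40103513, intron 4: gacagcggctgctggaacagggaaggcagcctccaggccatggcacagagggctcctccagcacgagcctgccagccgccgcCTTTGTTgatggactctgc
BID, RBPJ in iEV MB157R, chr22:17771825-17771925, intron 1: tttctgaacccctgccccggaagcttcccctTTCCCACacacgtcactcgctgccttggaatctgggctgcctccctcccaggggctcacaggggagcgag
BCL2L11, RBPJ in iN1-ICD MB157R, chr2:111071965-111072065, upstream: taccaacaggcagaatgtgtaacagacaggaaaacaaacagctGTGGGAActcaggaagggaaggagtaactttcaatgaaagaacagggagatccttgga
BID, HA-SOX2 in iSOX2 MB157, chr22:17786883-17786983, upstream: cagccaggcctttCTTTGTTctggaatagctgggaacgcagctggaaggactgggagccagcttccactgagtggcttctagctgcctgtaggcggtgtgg

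An MCL1 sequence was added after its value had been seen, because this was the RBPJ peak of highest fold among the members. It carried neither form of the RBPJ motif in the stretch shown, and its capitals mark only TGGGAA, which is GTGGGAA without its first letter. This shorter form was chosen after the sequence had been seen, so its presence there is no test of an RBPJ motif. On either strand it lay within 50 bp of 30.1% of the 25243 RBPJ summits of iEV MB157, and in 9.06% of windows of the same length 1 kb away. Both shares include places with the full GTGGGAA, and the shorter form without it was not counted apart.
MCL1, RBPJ in iEV MB157, chr1:150568453-150568553, downstream of the MANE transcript: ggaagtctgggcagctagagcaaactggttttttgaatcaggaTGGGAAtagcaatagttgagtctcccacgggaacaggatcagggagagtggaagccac

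RBPJ was called at most of the 10 promoters in MB157R, and SOX2 at 6 in iEV MB157R and at none in iN1-ICD MB157R. Within 1 kb of the TSS, RBPJ had a summit at 8 members in iN1-ICD MB157R (45.6% of all protein-coding genes), 8 in iEV MB157R (59.6%), 7 in iSOX2 MB157 (53.6%) and 4 in iEV MB157 (40.3%). SOX2 had a promoter summit at 0 members in iN1-ICD MB157R (0.0801% of genes) and at 6 in iEV MB157R (22.9%). HA-SOX2 had one at 3 members in iSOX2 MB157 (35.3%), and the HA control at 0 (0.0601%). No test was made of these 10 genes against the others.

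Over the whole windows nearly every member had a peak in every list with many peaks, as did most genes. For RBPJ the members with a summit were 10 in iN1-ICD MB157R (80.5% of genes), 10 in iEV MB157R (87.0%), 10 in iSOX2 MB157 (84.2%) and 9 in iEV MB157 (74.8%), where BID had none. For SOX2 they were 1 in iN1-ICD MB157R (1.40%) and 9 in iEV MB157R (75.4%), where BAX had none. For HA-SOX2 they were 10 (92.3%), and for the HA control 0 (0.541%). The HA control had 77 peaks in all, so its 0 in these windows allows a share of up to 3.90% of its peaks. The number of summits in the 10 windows was 79, 81, 54 and 29 for RBPJ in iN1-ICD MB157R, iEV MB157R, iSOX2 MB157 and iEV MB157, 1 and 60 for SOX2 in iN1-ICD MB157R and iEV MB157R, and 71 for HA-SOX2.

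**Figure D1:**
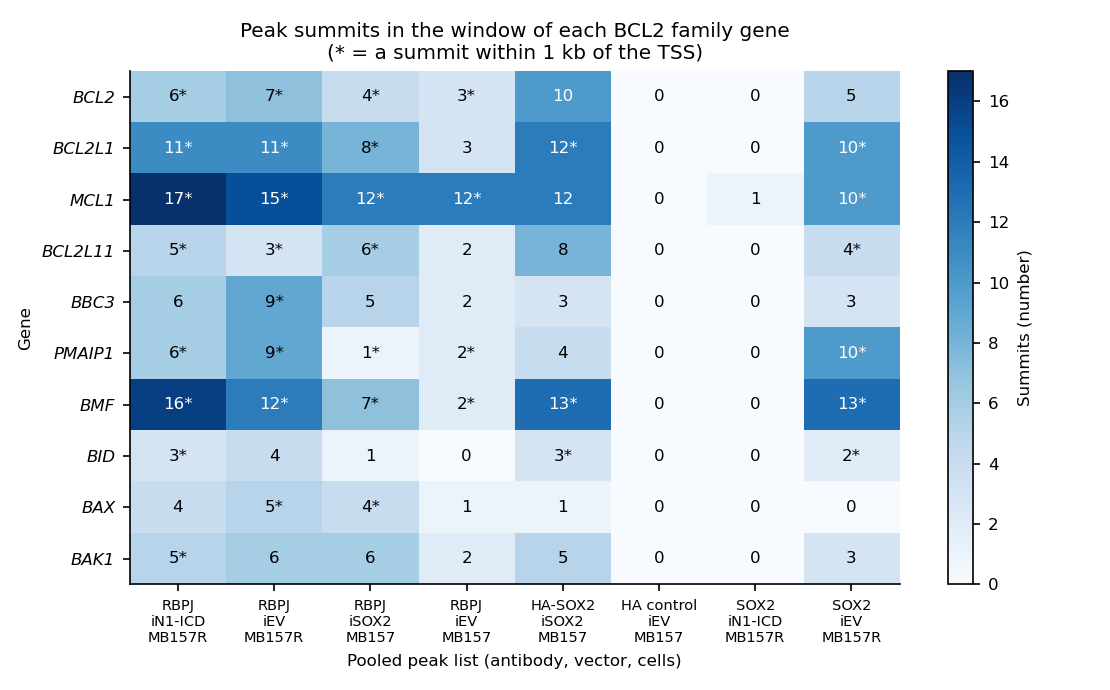
Number of peak summits in the window of each of the 10 genes (rows) in each pooled list (columns), with an asterisk where a summit lay within 1 kb of the TSS. MCL1 and BMF reach 17 and 16 RBPJ summits in iN1-ICD MB157R, and the SOX2 column of that condition holds a single summit, at MCL1.

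The depth of the pooled lists was read from the genome background, the fragment count that MACS2 assumed wherever the input was not locally raised, recovered from the deposited values. It was 1.75, 1.82, 2.04 and 1.60 for RBPJ in iN1-ICD MB157R, iEV MB157R, iSOX2 MB157 and iEV MB157, 1.74 and 1.96 for SOX2 in iN1-ICD MB157R and iEV MB157R, 2.24 for HA-SOX2 and 0.524 for the HA control, the shallowest list. The lists held between 77 peaks (HA control) and 108203 (HA-SOX2).

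The members differed in how densely they were occupied. In iEV MB157R, BMF had 13 SOX2 summits in its window of 100 kb, a density reached by 0.115% of protein-coding genes, MCL1 and PMAIP1 had 10 each (0.531% of genes), and BCL2L1 had 9.22 per 100 kb (0.561%). By contrast BID had 2 in 100 kb, which 42.8% of genes reached. RBPJ was densest at MCL1, with 17 summits in 100 kb in iN1-ICD MB157R (reached by 0.771% of genes) and 15 in iEV MB157R (1.56%). RBPJ at BMF followed with 16 in iN1-ICD MB157R (1.00%) and 12 in iEV MB157R (4.03%). These are densities of windows, and many sites in the MCL1 window lie nearer to the TSS of ADAMTSL4 or ENSA. Over the 10 windows, the gene's own TSS was the nearest for 48 of 79 RBPJ summits in iN1-ICD MB157R and 53 of 81 in iEV MB157R. The window of MCL1 also has a higher input: the median background at the members' summits was 1.97 times the genome background at MCL1 and 1.58 times at BCL2L1, against 1.00 times at BCL2, BBC3, PMAIP1 and BID. The part of the higher input in these densities was not tested.

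**Figure D2:**
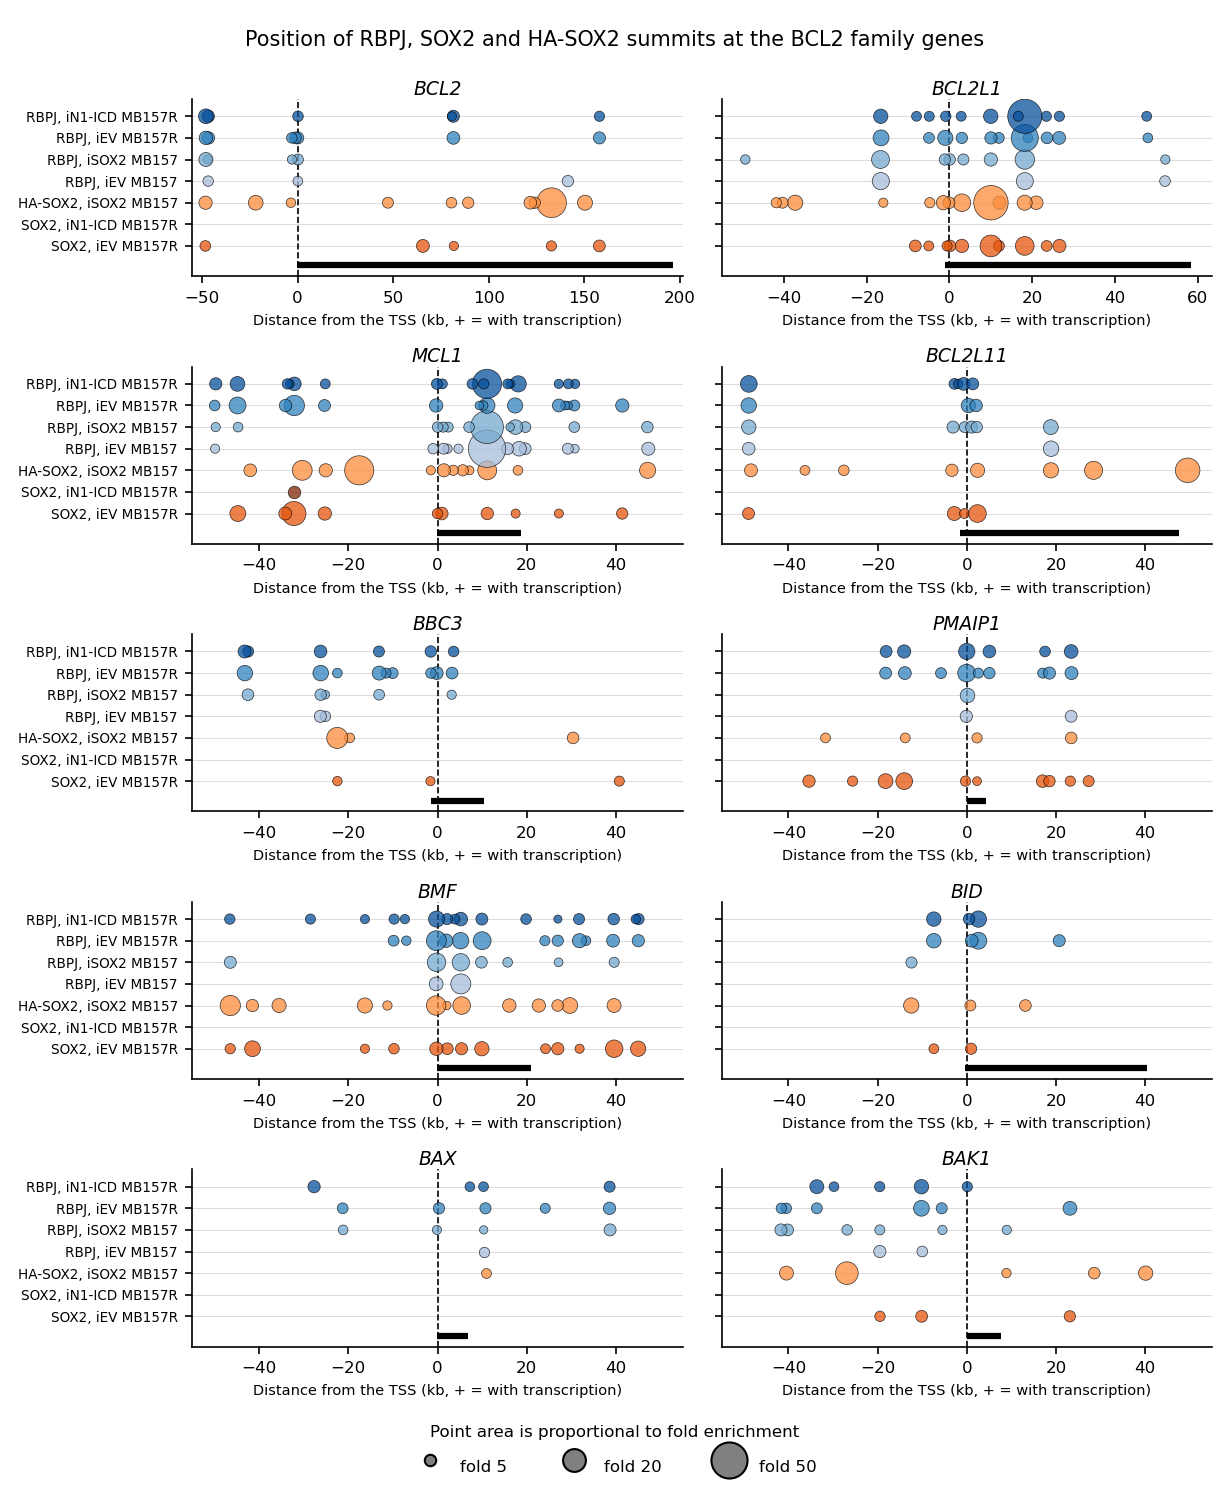
Distance of each summit from the TSS of its gene (x axis, kb, positive in the direction of transcription) in 7 lists (rows), with point area proportional to the fold enrichment at the summit, the gene body as a black bar and the TSS as a dashed line. The largest points are the RBPJ site of MCL1 at 11.1 kb, the RBPJ site of BCL2L1 at 18.2 kb and the HA-SOX2 site of BCL2L1 at 10.0 kb.

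Among the survival genes, BCL2L1 (chr20:31664452-31723989, minus strand) carried its main RBPJ site in intron 2, 18.2 kb from the TSS. This site was called in all 4 RBPJ lists, with SOX2 in iEV MB157R and with HA-SOX2 in iSOX2 MB157. RBPJ had 145 fragments at the summit in iN1-ICD MB157R (fold 44.8 over the local background), 135 in iEV MB157R (28.1), 72 in iSOX2 MB157 (14.5) and 36 in iEV MB157 (11.1). Both MB157R values lay above both MB157 values, also per genome background (82.7 and 74.1, against 35.4 and 22.4). SOX2 had 64 fragments there in iEV MB157R (fold 13.5) and HA-SOX2 46 in iSOX2 MB157 (8.74), and the SOX2 summit lay 13 bp from that of RBPJ. The GTGGGAA shown above starts 8 bp before the RBPJ summit.

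The main SOX2 site of BCL2L1 was a different one in the same intron, 10.0 kb from the TSS. HA-SOX2 had 200 fragments there in iSOX2 MB157 (fold 45.5) and SOX2 108 in iEV MB157R (fold 18.2), and no SOX2 peak was called in iN1-ICD MB157R. RBPJ was weaker at this site, with fold 8.01 in iN1-ICD MB157R, 5.80 in iEV MB157R and 6.76 in iSOX2 MB157. The fragments were 25, 30 and 26, over a local background of 2.25, 4.34 and 2.99 in the same order. RBPJ was not called there in iEV MB157. At the promoter, RBPJ had fold 4.21 in iN1-ICD MB157R, 8.87 in iEV MB157R and 5.04 in iSOX2 MB157, without a peak in iEV MB157. The other strong RBPJ peak of the window, at -16.6 kb (fold 7.87, 9.73, 12.3 and 11.3 in iN1-ICD MB157R, iEV MB157R, iSOX2 MB157 and iEV MB157), lies nearer to the TSS of TPX2, a spindle assembly factor. Its fragments were 29, 46, 64 and 33, over a local background of 2.81, 3.83, 4.28 and 2.00 in the same order.

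MCL1 (chr1:150560895-150579738, minus strand) held the strongest RBPJ site of the family, 11.1 kb downstream of its TSS. RBPJ had 147 summit fragments in iN1-ICD MB157R (fold 32.8), 49 in iEV MB157R (9.63), 210 in iSOX2 MB157 (41.5) and 269 in iEV MB157 (53.5). The iEV MB157R value was the lowest of the 4 and its interval (36.3 to 64.8 fragments) did not reach that of any other list. The local background differed little, at 3.51, 4.19, 4.08 and 4.05 fragments in the same order. HA-SOX2 (75 fragments, fold 13.8, iSOX2 MB157) and SOX2 (30 fragments, fold 5.89, iEV MB157R) were also called there, 54 and 48 bp from the RBPJ summit of the same cells.

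A distal site of MCL1 at -32.2 kb showed another order. It was the strongest SOX2 site of the members in iEV MB157R, with 113 fragments (fold 22.3), and the only one also called in iN1-ICD MB157R, with 24 fragments (fold 6.04). RBPJ had 30 fragments there in iN1-ICD MB157R (fold 7.19) and 70 in iEV MB157R (15.9), and no peak in either MB157 list. The nearest TSS is that of ENSA, which encodes an inhibitor of the phosphatase PP2A. HA-SOX2 was not called at this site, but had a peak with fold 32.6 at -17.6 kb that no other list shared. The MCL1 promoter carried weak RBPJ peaks in every condition, with fold 4.67 in iN1-ICD MB157R, 6.86 in iEV MB157R, 4.23 in iSOX2 MB157 and 4.20 in iEV MB157.

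BCL2 (chr18:63123346-63320128, minus strand) was the longest of the genes with 197 kb, and none of its RBPJ peaks exceeded fold 8.35. Its RBPJ density was reached by 41.8%, 49.4%, 57.9% and 47.6% of protein-coding genes in iN1-ICD MB157R, iEV MB157R, iSOX2 MB157 and iEV MB157. Its SOX2 density in iEV MB157R was reached by 30.6% of genes and that of HA-SOX2 by 49.4%. RBPJ was called near its TSS in all 4 lists, with fold 4.36, 5.67, 4.61 and 3.64 in iN1-ICD MB157R, iEV MB157R, iSOX2 MB157 and iEV MB157, and the intervals of the summit fragments overlapped. SOX2 had no promoter peak at BCL2 in any list. HA-SOX2 had its strongest site of this window in intron 2, 132.8 kb from the TSS, with 109 fragments (fold 33.9), against 11 fragments (fold 4.05) for SOX2 in iEV MB157R. The strongest RBPJ site of the window, near -47.9 kb (fold 8.35 in iN1-ICD MB157R), lies next to the TSS of KDSR, an enzyme of sphingolipid synthesis.

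Of the BH3-only genes, BMF (chr15:40087890-40108892, minus strand) had the most sites, 24, and its promoter was occupied in all lists but SOX2 in iN1-ICD MB157R and the HA control. RBPJ had 32, 45, 43 and 18 fragments at the promoter in iN1-ICD MB157R, iEV MB157R, iSOX2 MB157 and iEV MB157 (fold 9.98, 15.1, 13.1 and 7.30). The iEV MB157 count was the lowest. SOX2 in iEV MB157R (fold 6.89) and HA-SOX2 in iSOX2 MB157 (fold 14.5) peaked at the same place, SOX2 at 4 bp from RBPJ. A second site shared by all 4 RBPJ lists lay in intron 4 at 5.2 kb, with 30, 52, 48 and 39 fragments in the same order. Its folds were 7.19, 10.4, 11.7 and 15.4, over a local background of 3.31, 4.09, 3.20 and 1.60 fragments. The order of the folds was therefore not that of the fragments. HA-SOX2 had fold 11.9 at this site. In iEV MB157R, 10 of the 12 RBPJ summits of BMF had a SOX2 summit within 500 bp, compared with 46.4% of all RBPJ summits of that list.

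BCL2L11 (chr2:111119378-111168444, plus strand), which encodes BIM, had 1 RBPJ site called in all 4 lists, at -48.9 kb, where the GTGGGAA shown above lies. RBPJ had 34, 41, 23 and 16 fragments there in iN1-ICD MB157R, iEV MB157R, iSOX2 MB157 and iEV MB157 (fold 10.7, 9.18, 7.91 and 6.19). The peak lies in the body of the neighbouring gene ACOXL. A site in intron 2, at 18.9 kb, was called in MB157 alone, where RBPJ had fold 8.57 in iSOX2 MB157 and 9.22 in iEV MB157 and HA-SOX2 had fold 8.94. The BCL2L11 promoter had RBPJ peaks in iN1-ICD MB157R (fold 6.27), iEV MB157R (8.00) and iSOX2 MB157 (4.57) and none in iEV MB157. In intron 1, at 2.4 kb, SOX2 had 43 fragments in iEV MB157R (fold 12.1) and HA-SOX2 24 in iSOX2 MB157 (7.71), and HA-SOX2 alone had a strong peak past the gene at 49.5 kb (fold 23.1).

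PMAIP1 (chr18:59899996-59904305, plus strand), which encodes NOXA, carried RBPJ at its TSS in all 4 lists. The fragments were 27 in iN1-ICD MB157R, 36 in iEV MB157R, 30 in iSOX2 MB157 and 14 in iEV MB157 (fold 10.2, 12.2, 8.21 and 5.76). SOX2 had 10 summits in the window in iEV MB157R, the strongest at -14.0 kb (fold 10.8). Of these 10, 7 lay within 500 bp of RBPJ, compared with 57.0% of all SOX2 summits of that list. In MB157 the window was sparse, as HA-SOX2 had 4 summits of at most fold 5.24 and RBPJ 1 in iSOX2 MB157 and 2 in iEV MB157.

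BBC3 (chr19:47220822-47232766, minus strand), which encodes PUMA, had a promoter peak of RBPJ in iEV MB157R only (fold 6.38). Its only RBPJ site in all 4 lists, at -26.2 kb (fold 6.24, 9.35, 5.05 and 5.62 in iN1-ICD MB157R, iEV MB157R, iSOX2 MB157 and iEV MB157), lies nearer to the TSS of CCDC9. HA-SOX2 had 54 fragments at -22.5 kb (fold 17.0), against 10 for SOX2 in iEV MB157R (3.45). BID (chr22:17734138-17774770, minus strand) was the only member with no RBPJ peak in iEV MB157. Its intron 1 site at 2.6 kb, with the TTCCCAC shown above, was called in MB157R alone, with 35 fragments in iN1-ICD MB157R and 30 in iEV MB157R (fold 10.3 and 11.0). That site had no SOX2 peak within 500 bp.

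The effector genes differed from each other. BAX (chr19:48954815-48961798, plus strand) had no RBPJ peak above fold 5.92 in any list, no SOX2 peak in MB157R and 1 HA-SOX2 peak (fold 3.74). Most of its sites lie nearer to other TSSs, those of DHDH, FTL and GYS1, and its own promoter had RBPJ in iEV MB157R (fold 4.93) and iSOX2 MB157 (3.19). BAK1 (chr6:33572547-33580293, minus strand) had its strongest RBPJ site at -10.2 kb, with 24 fragments in iN1-ICD MB157R (fold 8.05), 26 in iEV MB157R (9.57) and 11 in iEV MB157 (4.43), and no peak in iSOX2 MB157. A promoter peak was called in iN1-ICD MB157R only (fold 3.99). HA-SOX2 reached fold 19.7 at -26.9 kb.

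RBPJ and SOX2 sites of the members often coincided. In iEV MB157R, an RBPJ summit was found less than 500 bp from 45 of 60 SOX2 summits (75.0%, exact 95% interval 62.1 to 85.3), compared with 57.0% of all SOX2 summits. Conversely 45 of 81 RBPJ summits (55.6%, 44.1 to 66.6) lay near SOX2, compared with 46.4% of all. The 45 pairs were a median of 69 bp apart, and within 100 bp the members' shares were 48.3% for SOX2 and 35.8% for RBPJ. Shares over all summits were computed at 500 bp only. RBPJ summits with SOX2 had a median fold of 6.38 and those without of 4.61. The members with the most pairs were BMF with 10, MCL1 with 9, BCL2L1 with 8 and PMAIP1 with 7, and BAX had 0.

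In iSOX2 MB157, 25 of 71 HA-SOX2 summits (35.2%, 24.2 to 47.5) lay near RBPJ, compared with 15.0% of all, and 25 of 54 RBPJ summits (46.3%, 32.6 to 60.4) near HA-SOX2, compared with 47.1% of all. These shares depended on the settings, as HA-SOX2 near RBPJ fell to 16.9% within 100 bp, and RBPJ near HA-SOX2 to 18.5% with lists of equal length. The intervals of the members' SOX2 and HA-SOX2 shares did not reach the shares over all summits, whereas those of the RBPJ shares did. This is no test of the family, since the intervals count summits as independent and neighbouring summits of a gene are not. BMF, MCL1, BCL2L1 and PMAIP1 held most of the pairs in iEV MB157R. The windows were not compared with those of other genes. Of the SOX2 summits of iEV MB157R, 26 of 60 (43.3%, 30.6 to 56.8) were also HA-SOX2 summits in iSOX2 MB157, compared with 34.7% of all. In the other direction this held for 25 of 71 HA-SOX2 summits (35.2%), compared with 12.2% of all. The members' share of SOX2 summits also called as HA-SOX2 was 25.0% within 100 bp and 18.3% with lists of equal length. For none of these shares was the value over all summits computed within 100 bp or with lists of equal length.

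**Figure D3:**
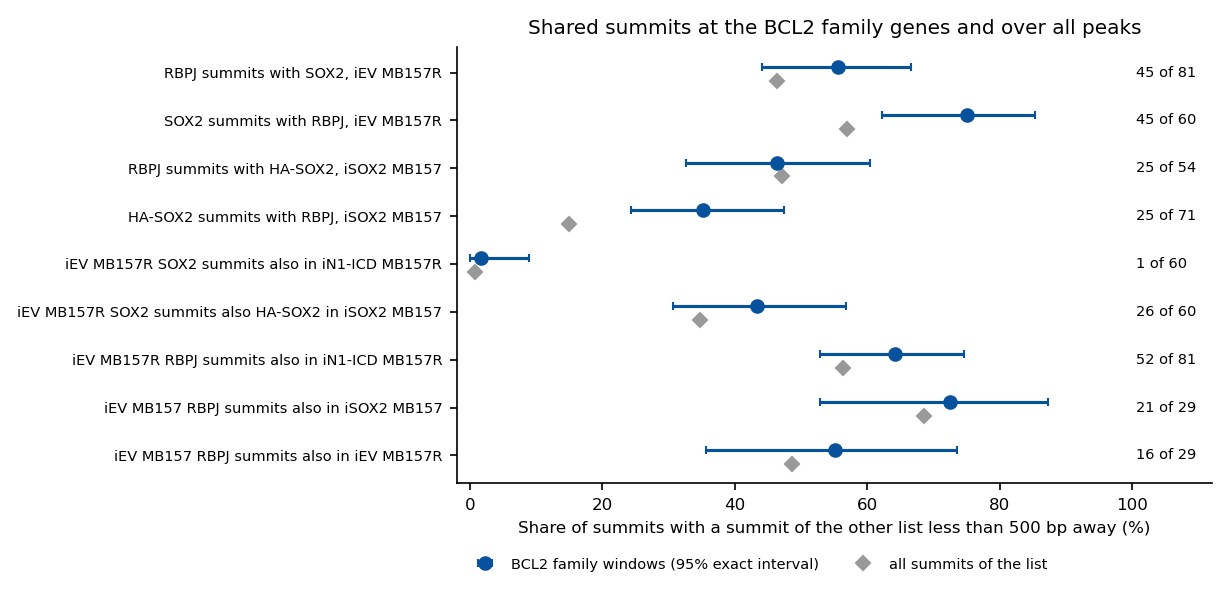
Share of summits that had a summit of a second list less than 500 bp away (x axis, %), in the windows of the 10 genes (circles, with exact 95% intervals) and over all summits of the list (diamonds). The lowest share is that of the SOX2 summits of iEV MB157R that were also called in iN1-ICD MB157R, 1 of 60.

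RBPJ sites of the members lay at promoters more often than HA-SOX2 sites in iSOX2 MB157, the 1 of 8 comparisons of RBPJ with SOX2 sites that passed the threshold of 0.05 after adjustment. There, 19 of 54 RBPJ summits and 7 of 71 HA-SOX2 summits lay within 1 kb of a TSS of a protein-coding gene (odds ratio 4.90, 95% interval 1.76 to 15.2, adjusted p = 0.00595, two-sided Fisher's exact test with Benjamini-Hochberg adjustment over 8 tests). Their shares of 35.2% and 9.86% stood beside 31.9% of all RBPJ and 6.45% of all HA-SOX2 summits, the same order. In iEV MB157R the counts were 21 of 81 for RBPJ and 9 of 60 for SOX2 (odds ratio 1.97, 0.782 to 5.35, adjusted p = 0.293, Fisher's exact test), beside 26.2% of all RBPJ and 11.5% of all SOX2 summits. A SOX motif lay within 100 bp of 9 of 81 RBPJ summits and 16 of 60 SOX2 summits in iEV MB157R (odds ratio 0.346, 0.124 to 0.916, adjusted p = 0.0660, Fisher's exact test). In iSOX2 MB157 it lay at 6 of 54 RBPJ summits and 21 of 71 HA-SOX2 summits (odds ratio 0.30, 0.0911 to 0.855, adjusted p = 0.0627, Fisher's exact test). Over all summits the SOX motif share was 6.66% for RBPJ and 18.8% for SOX2 in iEV MB157R, and 7.62% for RBPJ and 30.7% for HA-SOX2 in iSOX2 MB157. Within 50 bp of the summit both SOX motif differences passed, with odds ratios of 0.0846 (adjusted p = 0.00156) and 0.134 (adjusted p = 0.00987, Fisher's exact test). Sites shared by both factors entered both counts, and neighbouring sites of a gene are not independent.

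For the other motifs no difference between both kinds of site passed the threshold, and the intervals were wide. An RBPJ motif lay at 12 of 81 RBPJ and 5 of 60 SOX2 summits in iEV MB157R (odds ratio 1.90, 0.581 to 7.33) and at 5 of 54 RBPJ and 3 of 71 HA-SOX2 summits in iSOX2 MB157 (2.30, 0.424 to 15.5), both with adjusted p = 0.374 (Fisher's exact test). Over all RBPJ summits its share was 16.4% in iEV MB157R and 19.7% in iSOX2 MB157, and in windows 1 kb away it was 7.24% and 6.94%. An AP-1 motif (TGACTCA, either strand) lay at 17 of 81 RBPJ and 17 of 60 SOX2 summits in iEV MB157R (odds ratio 0.674, 0.288 to 1.57, adjusted p = 0.374, Fisher's exact test), and at 3 of 54 and 3 of 71 in iSOX2 MB157 (1.33, 0.171 to 10.3, adjusted p = 1, Fisher's exact test). Over all summits the AP-1 share was 18.5% for RBPJ and 31.0% for SOX2 in iEV MB157R, and 4.58% for RBPJ and 5.54% for HA-SOX2 in iSOX2 MB157.

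With N1-ICD expressed in MB157R, nearly all SOX2 peaks of the family were missing from the list, whereas most RBPJ peaks were called again. The SOX2 list of iN1-ICD MB157R had 323 peaks in all, against 37963 in iEV MB157R. Of the 60 SOX2 summits of iEV MB157R, 1 (1.67%, 0.0422 to 8.94) was called in iN1-ICD MB157R, compared with 0.796% of all. At that site, MCL1 at -32.2 kb, SOX2 per genome background was 0.239 times that in iEV MB157R (95% interval 0.147 to 0.374). Of the 81 RBPJ summits of iEV MB157R, 52 (64.2%, 52.8 to 74.6) were called in iN1-ICD MB157R, compared with 56.3% of all. Within 100 bp the members' share was 39.5%, and the share over all summits was not computed at that limit. Of the 79 RBPJ summits of iN1-ICD MB157R, 52 (65.8%, 54.3 to 76.1) were called in iEV MB157R, compared with 70.7% of all.

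At the 52 RBPJ sites called in both, the summit fragments per genome background in iN1-ICD MB157R were a median of 0.844 times those in iEV MB157R, beside 0.792 over all 26385 such sites. The interval of the ratio spanned 1 at 48 of them. It lay above 1 at a single site, MCL1 at 11.1 kb (ratio 3.12, 2.24 to 4.40), and 99.8% of all shared sites had a lower ratio. It lay below 1 at MCL1 -32.1 kb (0.445, 0.280 to 0.692), BMF 5.2 kb (0.600, 0.369 to 0.958) and the BCL2L1 promoter (0.534, 0.285 to 0.970). Of all shared sites, 2.61% had a lower ratio than MCL1 -32.1 kb, 18.1% than BMF 5.2 kb and 9.74% than the BCL2L1 promoter. The intervals of this BMF site and of the BCL2L1 promoter include 0.792, the median over all such sites. At the intronic BCL2L1 site at 18.2 kb the ratio was 1.12 (0.877 to 1.42), and the difference in fold there went with a local background ratio of 0.612.

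The GSI-resistant cells had more RBPJ sites at the family than their parental line. With the empty vector, RBPJ had 81 summits in MB157R and 29 in MB157. Of the 29 in iEV MB157, 16 (55.2%, 35.7 to 73.6) were called in iEV MB157R, compared with 48.6% of all. Of the 81 in iEV MB157R, 16 (19.8%, 11.7 to 30.1) were called in iEV MB157, compared with 26.2% of all. Of the 65 sites of iEV MB157R that iEV MB157 lacked, 37 (56.9%) had SOX2 in iEV MB157R, beside 49.4% of such sites over the genome, and of the 16 shared sites 8 had it (50.0%, beside 42.9%). RBPJ was called in iSOX2 MB157 at 20 of the 65 (30.8%, beside 16.5%). Over all genes iEV MB157R also had the longer RBPJ list (46601 peaks, against 25243 in iEV MB157).

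Where RBPJ was called in both empty-vector lists, the ratio of iEV MB157R to iEV MB157 had a median of 1.38 over 16 sites, beside 1.22 over all 12205. Its interval lay above 1 at BCL2L1 18.2 kb (3.30, 2.27 to 4.91), PMAIP1 -46 bp (2.26, 1.19 to 4.54), BCL2L11 -48.9 kb (2.26, 1.24 to 4.31) and the BMF promoter (2.20, 1.25 to 4.04). Of all shared sites, 97.0% had a lower ratio than BCL2L1, 89.1% than PMAIP1, 89.0% than BCL2L11 and 88.3% than BMF. At BCL2L1 the local input background, per genome background, was 1.45 times higher in iEV MB157R and at BCL2L11 1.80 times, and the part of the input in these ratios was not tested. The interval lay below 1 at MCL1 11.1 kb alone (0.160, 0.116 to 0.218), where the local background ratio was 0.912 and 0.213% of all shared sites had a lower ratio. In iN1-ICD MB157R, the RBPJ signal of that MCL1 site was 0.500 times that of iEV MB157 (0.406 to 0.614). In that comparison 9.84% of all shared sites had a lower ratio.

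**Figure D4:**
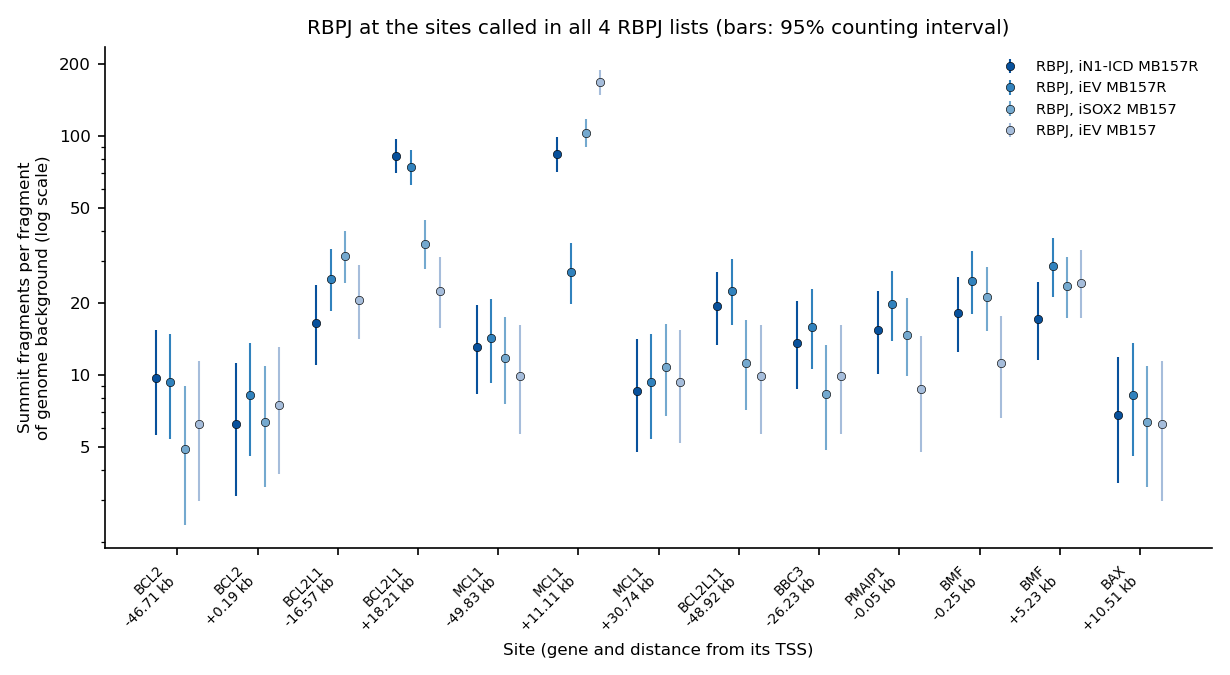
RBPJ at the 13 sites of the family that were called in all 4 RBPJ lists. The y axis gives summit fragments per fragment of genome background (log scale) with 95% counting intervals. MCL1 at 11.11 kb is lowest in iEV MB157R (26.9) and highest in iEV MB157 (168), whereas BCL2L1 at 18.21 kb is higher in both MB157R lists (82.7 and 74.1) than in both MB157 lists (35.4 and 22.4).

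With SOX2 induced in MB157, RBPJ differed at few of the sites also called in iEV MB157, and more sites were called. Of the 29 RBPJ summits of iEV MB157, 21 (72.4%, 52.8 to 87.3) were called in iSOX2 MB157, compared with 68.5% of all, and of the 54 of iSOX2 MB157, 21 (38.9%, 25.9 to 53.1) were called in iEV MB157, compared with 50.0%. At the 21 sites called in both, the median ratio of iSOX2 MB157 to iEV MB157 was 0.970, beside 0.967 over all 17259. Its interval lay above 1 at the BMF promoter (1.88, 1.06 to 3.47) and at BCL2L1 18.2 kb (1.58, 1.04 to 2.42), and below 1 at MCL1 11.1 kb (0.615, 0.511 to 0.740). Of all sites shared by these 2 lists, 98.8% had a lower ratio than the BMF promoter, 95.2% than BCL2L1 18.2 kb and 8.94% than MCL1 11.1 kb. The 3 promoters at which RBPJ was called in iSOX2 MB157 and not in iEV MB157 were those of BCL2L1, BCL2L11 and BAX. The genome background was 2.04 fragments in the iSOX2 list, against 1.60 in that of iEV MB157, and the part of depth in the number of sites was not tested.

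**Figure D5:**
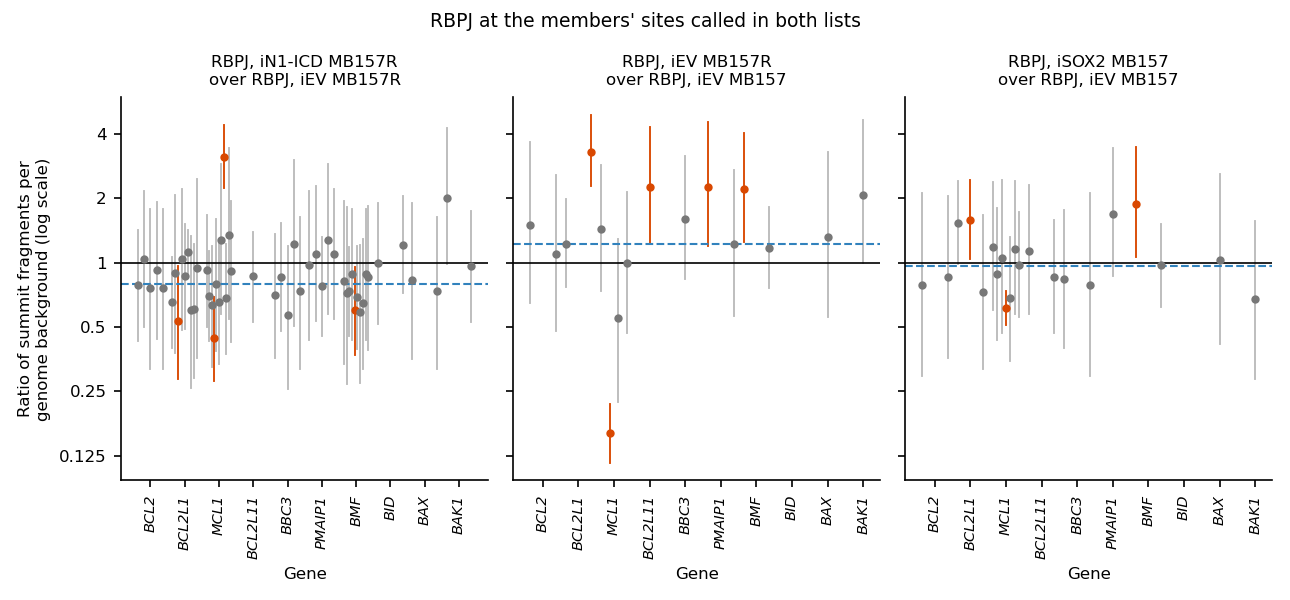
Ratio of RBPJ summit fragments per genome background between lists (y axis, log scale) at the sites of each gene called in both lists, with 95% counting intervals, orange where the interval does not include 1. The dashed line is the median over all sites called in both lists. The MCL1 site at 11.1 kb stands at 3.12 in the left panel, 0.160 in the middle panel and 0.615 in the right panel.

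HA-SOX2 in iSOX2 MB157 and SOX2 in iEV MB157R were precipitated with different antibodies and in different cells, so that a ratio between them also carries those differences. At the 25 sites called in both, the ratio of HA-SOX2 to SOX2 had a median of 1.25, beside 1.08 over all 13166. Its interval lay above 1 at 8 sites, below 1 at 6 and spanned 1 at 11. The extremes were BCL2 at 132.8 kb (8.66, 4.65 to 17.9) and PMAIP1 near -13.8 kb (0.310, 0.141 to 0.634).

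When the summits of all lists were merged, the family had 160 sites, of which 122 had RBPJ in some list and 102 SOX2 or HA-SOX2. Both factors were found at 64, RBPJ alone at 58 and SOX2 or HA-SOX2 alone at 38. Of the RBPJ sites, 52.5% thus had SOX2 or HA-SOX2, near the 49.9% over the genome. Of the SOX2 or HA-SOX2 sites, 62.7% had RBPJ, beside 29.0% over the genome, and these shares were not tested. The mix of lists differs between them: the windows held 60 SOX2 summits of iEV MB157R and 71 HA-SOX2 summits, the whole lists 37963 and 108203. Over all summits, 57.0% of that SOX2 list and 15.0% of the HA-SOX2 list lay near RBPJ of the same cells. The part of this mix in the difference was not tested. RBPJ was called in all 4 conditions at 13 sites (10.7% of the RBPJ sites, beside 11.4% over the genome), of MCL1 (3), BCL2, BCL2L1 and BMF (2 each), and BCL2L11, BBC3, PMAIP1 and BAX (1 each), but not of BID or BAK1. Of the 122 RBPJ sites, 25 (20.5%) had RBPJ in both MB157R lists and in neither MB157 list and 6 (4.92%) the reverse, beside 17.3% and 7.43% of the 76880 RBPJ sites of the genome merged in the same way. The 5 sites with RBPJ in all 4 lists and with both SOX2 and HA-SOX2 were BCL2L1 18.2 kb, MCL1 11.1 kb, BCL2L11 -48.9 kb and both BMF sites.

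Of 42 other apoptosis genes, all of which were found in the annotation, more carried RBPJ than SOX2 at the promoter, as did protein-coding genes in general. RBPJ had a promoter summit at 27 in iN1-ICD MB157R (64.3%, beside 45.6% of all protein-coding genes), 36 in iEV MB157R (85.7%, beside 59.6%), 32 in iSOX2 MB157 (76.2%, beside 53.6%) and 23 in iEV MB157 (54.8%, beside 40.3%). SOX2 had one at 0 in iN1-ICD MB157R (beside 0.0801%) and 16 in iEV MB157R (38.1%, beside 22.9%), and HA-SOX2 at 20 (47.6%, beside 35.3%). These shares were not tested. All 7 inhibitor-of-apoptosis genes and their antagonists had RBPJ in all 4 conditions, a share that was not computed for all genes. Such calls were not rare, since the patterns of BMF and BCL2, given below, both have RBPJ in all 4 lists. They were shared by 9.87% and 7.21% of the other genes. The groups of genes were chosen with earlier results of these data known. RBPJ had a promoter summit at 3, 8, 4 and 1 of the 10 other BCL2 family genes in iN1-ICD MB157R, iEV MB157R, iSOX2 MB157 and iEV MB157. In the same order it was at 6, 7, 7 and 6 of 9 apoptosome and caspase genes. For 10 death receptor and adaptor genes the counts were 7, 8, 8 and 4, and for 6 genes of the p53 axis 4, 6, 6 and 5. The strongest RBPJ promoter peaks in iEV MB157R were those of TRADD, an adaptor of tumour necrosis factor receptor 1 (fold 39.1, 128 fragments), and APAF1, the scaffold of the apoptosome (fold 34.3, 121 fragments), which lies nearer to the TSS of IKBIP. For SOX2 they were those of TP53I3, a target of p53 (fold 7.79), and TNFSF10, the ligand TRAIL (fold 6.71, summit at -53 bp). At the TNFSF10 promoter HA-SOX2 had fold 53.1 in iSOX2 MB157, with its summit at 655 bp, more than 500 bp from that of SOX2.

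The combination of promoter calls over the 7 lists was common for some members and rare for others. The pattern of BMF, with RBPJ in all 4 lists, SOX2 in iEV MB157R and HA-SOX2, was shared by 1970 of the 19969 other genes (9.87%). That of BCL2, with RBPJ alone in all 4 lists, was shared by 1440 (7.21%). MCL1 and PMAIP1 had the same pattern, RBPJ in all 4 lists with SOX2 of iEV MB157R, shared by 512 (2.56%). That of BID, with RBPJ in iN1-ICD MB157R and both SOX2 in iEV MB157R and HA-SOX2, was shared by 10 (0.0501%), and it depends on the 1 kb limit, since BID also had an RBPJ summit at 1.1 kb in iEV MB157R (fold 6.38). The other patterns were shared by between 147 (BAK1) and 694 genes (BBC3).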

How the data were processed

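ChIP-seq reads of 34 libraries had been trimmed, aligned with BWA to hg38 and called with MACS2 (nf-core/chip-seq pipeline, genome size 2.7e9, FDR 0.05) on pooled replicates with inputs as controls. The 8 deposited narrowPeak lists give, for each peak, the authors' ratio of summit to local background (fold), and positions. The significance columns, as deposited, are −log10 of the p-value and of the q-value. Peaks outside chromosomes 1 to 22 and X were left out. Fold = (n + 1)/(l + 1) and the Poisson −log10 p were solved together for the whole fragments n and background l at each summit, at no less than 99.7% of the peaks of a list, and the smallest l of a list was its genome background. Ratios between lists are n per genome background, with exact conditional intervals. The recovery was tested on simulated summits.

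Genes came from GENCODE 44. Co-localization and repeated calls meant summits less than 500 bp apart, promoters were within 1 kb of a TSS, and motifs were searched within 100 bp of summits. Intervals are exact (Clopper-Pearson or Poisson) at 95%. RBPJ and SOX2 sites were compared by Fisher's exact test (two-sided, Benjamini-Hochberg over 8 tests). All 10 members were described, and of the other apoptosis genes the pair of strongest promoter peaks per factor in iEV MB157R was named. Alternatives were distances of 100 and 1000 bp, 1 bp of overlap, −log10 q of at least 5, lists of equal length, other windows, promoters and TSSs, and a 50 bp motif window. The members and lists were chosen with earlier results of these data known. Scripts ran in Python 3.11.15 with scipy 1.17.1, pandas 2.3.3, numpy 2.4.6, matplotlib 3.10.9 and pysam 0.24.0.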

Additional observations from a re-analysis of the deposited data

How the results depend on the processing

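No paired analysis was possible because the replicate libraries had been pooled before peaks were called, and for the same reason no replicate could be left out. With summits less than 100 bp apart, shares fell to 35.8% (RBPJ near SOX2, iEV MB157R), 48.3% (SOX2 near RBPJ), 22.2% (RBPJ near HA-SOX2), 16.9% (HA-SOX2 near RBPJ), 25.0% (SOX2 of iEV MB157R as HA-SOX2), 39.5% (RBPJ of iEV MB157R in iN1-ICD MB157R) and 48.3% (RBPJ of iEV MB157 in iSOX2 MB157). With 1000 bp, 75.3% of the RBPJ summits of iEV MB157R were called in iN1-ICD MB157R, and 51.7% with a −log10 q of at least 5. With lists of equal length, RBPJ near HA-SOX2 was 18.5%, HA-SOX2 near RBPJ 52.6% (10 of 19), SOX2 of iEV MB157R as HA-SOX2 18.3% and SOX2 called in iN1-ICD MB157R 50% (1 of 2), and 1 member had an HA-SOX2 promoter summit. That count was 7 with a promoter of 5 kb. With windows of 10 kb, 0 of 31 SOX2 summits were called in iN1-ICD MB157R, which allows a share of up to 9.68%. The SOX motif odds ratios with a 50 bp window were 0.0846 in iEV MB157R and 0.134 in iSOX2 MB157, past the threshold. The cause of these shifts was not tested, except that shorter lists and narrower limits hold fewer sites. The other alternatives moved shares by less than their interval and changed no test result, and the promoter counts in iEV MB157R lay between 7 and 9 members for RBPJ and between 4 and 8 for SOX2 under the alternatives run for them. Depth limits weak sites, since a summit with 10 fragments has an interval of 4.80 to 18.4.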
